A study of Mus musculus with 34 samples.

Results

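CTCF binding in CTCF-WT bone marrow-derived dendritic cells (BMDCs) was compared before and after LPS from the peak lists of the WT and WTLPS conditions. A peak that shared at least 1 bp with a peak of the other list was called shared, and the remaining peaks were called WT-only or WTLPS-only. The lists held 114557 of the 1393623 peaks in the 30 lists of the series. Of 60537 WT peaks, 48043 were shared and 12494 were WT-only. Of 54020 WTLPS peaks, 48369 were shared and 5651 were WTLPS-only.

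The series has 34 ChIP-seq samples, of which 4 are inputs, from BMDCs of C57BL/6 mice labelled as 8 weeks old. Both conditions used here had the genotype CreER, which is a tamoxifen-inducible Cre recombinase without floxed Ctcf alleles. The CTCF-KO conditions, used below only as a reference, had the genotype CreER;CTCF fl/fl. Bone marrow was grown with GM-CSF for 6 days, and 4-OH tamoxifen, given at the start, served to delete Ctcf in CTCF-KO cells. The study's text does not settle whether CTCF-WT cells received it too. WT cells were left unstimulated, and WTLPS cells received 100 ng/ml LPS, a bacterial ligand of the receptor TLR4, for 3 h. Each condition had 1 CTCF list. The study states, for its experiments in general, that biological replicates were merged and processed again together, while its ChIP-seq methods describe peaks for each replicate, so a list may come from pooled cultures. A difference between WT and WTLPS therefore cannot be told apart from a difference between these cultures or libraries, no test between conditions was possible, and all intervals below are 95% intervals for the counting error of peaks alone. In bulk chromatin, binding in fewer cells and weaker binding per cell also cannot be told apart.

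CTCF is a zinc finger protein that binds a long DNA motif and stops the extrusion of chromatin loops by cohesin, the ring complex that contains SMC1. Sites where CTCF holds cohesin anchor loops and bound topological domains, and most such sites are known to be occupied in many cell types. LPS acts through TLR4 on NF-κB, whose subunit p65 (RelA) enters the nucleus and binds enhancers and promoters of inflammatory genes. Promoters in use carry H3K4me3, active enhancers carry H3K4me1 with H3K27ac, and H3K27me3 is laid down by Polycomb.

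The chromatin had the marks of the labelled cell type. H3K4me3 peaks lay at the promoters of 12 of 12 dendritic cell and myeloid genes in WT and in WTLPS, among them Itgax (CD11c), Spi1, Irf8 and H2-Ab1, and H3K27ac peaks at 11 of 12 in each, with Flt3 lacking. Among 16 genes of other cells, H3K4me3 lay at 2 in each condition, and H3K27ac at 2 in WT (Cd4 and Klrb1c) and 1 in WTLPS (Klrb1c). The promoters of the B cell genes Cd79a and Ms4a1 and of the granulocyte genes Ly6g, Mpo and Elane had neither mark.

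Sequences under peak summits, with the CTCF core in capitals, are given first, because the classes differed in which core they carried. The core searched was CCNNNAGNNGGC on either strand, within 50 bp of the summit, and each sequence is 40 bases of GRCm38 (mm10) read on the strand of the core. Among shared peaks, a site labelled by its nearest gene Gm15319 lay at chr8:20424856-20424895 on the minus strand, a site near 4930467E23Rik at chr8:19703273-19703312 on the minus strand, and a site near Mroh6 at chr15:75883018-75883057 on the minus strand:
Gm15319: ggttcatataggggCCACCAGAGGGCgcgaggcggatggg
4930467E23Rik: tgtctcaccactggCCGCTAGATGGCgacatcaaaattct
Mroh6: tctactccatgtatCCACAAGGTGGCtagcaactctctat
Among WT-only peaks, intronic sites lay nearest the start sites of Anks3 (chr16:4972566-4972605, plus strand) and Ralgps2 (chr1:157004066-157004105, plus strand). Sites also lay in an intron of Il1a (chr2:129304212-129304251, minus strand) and upstream of Ccl5 (chr11:83537475-83537514, plus strand):
Anks3: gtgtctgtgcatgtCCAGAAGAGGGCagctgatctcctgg
Ralgps2: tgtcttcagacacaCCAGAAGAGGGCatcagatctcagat
Il1a: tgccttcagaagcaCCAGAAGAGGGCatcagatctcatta
Ccl5: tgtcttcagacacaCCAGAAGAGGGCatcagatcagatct
Among WTLPS-only peaks, sites lay outside genes near Cycs (chr6:50560120-50560159, plus strand), outside genes near Sfmbt2 (chr2:10305635-10305674, minus strand) and downstream of Tlr2 (chr3:83832684-83832723, minus strand). An intronic site lay nearest the start site of Dram1 (chr10:88365731-88365770, minus strand), and another site in the promoter region of Tlr1 (chr5:64932445-64932484, plus strand):
Cycs: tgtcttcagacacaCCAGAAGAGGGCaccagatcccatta
Sfmbt2: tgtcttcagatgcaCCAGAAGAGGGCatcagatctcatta
Tlr2: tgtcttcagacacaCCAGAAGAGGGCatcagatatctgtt
Dram1: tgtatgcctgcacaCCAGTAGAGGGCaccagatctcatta
Tlr1: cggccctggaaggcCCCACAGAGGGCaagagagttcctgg
The word CCAGAAGAGGGC filled the capitals in each of these WT-only sequences and in 3 of the WTLPS-only ones, while the shared ones each had another core. Outside the capitals, the Ralgps2, Ccl5, Cycs and Tlr2 sequences opened with the same 14 bases. Among the sequences of named peaks with a core outside exons, the word stood in 6 of 6 WT-only, 5 of 7 WTLPS-only and 0 of 3 shared ones. The 3 shared ones came from stronger peaks, with a −log10 p in WT of 741, 730 and 42.6. The strongest condition-only one (Anks3) had 37.4. These counts therefore do not compare the classes at equal strength. This word was singled out after the sequences had been seen.

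CTCF occupied mostly the same places before and after LPS. The shared classes made up 79.4% (79.0 to 79.7%) of WT peaks and 89.5% (89.3 to 89.8%) of WTLPS peaks, which left 20.6% (20.3 to 21.0%) of WT peaks as WT-only and 10.5% (10.2 to 10.7%) of WTLPS peaks as WTLPS-only. Together the lists covered 64617 separate regions, and 43344 sites had exactly 1 peak in each list.

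The peaks found in 1 condition were weak peaks. MACS2 gives each peak a fold enrichment, which sets the fragments over the summit against the local background, and a −log10 p for it. The median −log10 p was 8.47 for WT-only and 8.12 for WTLPS-only peaks, close to the lowest value of about 7 in either list, against 29.9 and 23.3 for the shared peaks of the same lists. Median fold was 4.22 and 4.19 against 8.86 and 7.77, and median width was 329 and 318 bp against 819 and 762 bp. In fragments over the summit, recovered from fold and p, the medians were 20 and 19 against 44 and 36. A wider or stronger peak more readily meets a partner, so these values describe the class rule.

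The share without a partner fell with peak strength in both lists. In WT it was 66.6% at a −log10 p of 7 to 8, 51.5% at 8 to 10, 28.7% at 10 to 15, 9.71% at 15 to 20 and 1.81% at 20 to 30. In WTLPS it was 45.2, 31.3, 10.9, 1.58 and 0.148% in the same ranges. From a −log10 p of 30 upwards, 7 of 24016 WT peaks and 0 of 20803 WTLPS peaks lacked a partner, the latter allowing a share of up to 0.0185%. At equal strength a WT peak lacked a partner more often than a WTLPS peak. The WT list was also the deeper, with a modal background of 3.74 fragments against 3.53. With WT peaks thinned on paper to the WTLPS coverage by that measure (a ratio of 0.945), 56925 WT peaks would be kept, of which 10075 (17.7%) would be WT-only. Mapped read totals in the study's reporting summary differ by more, and thinning to them was not tested.

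**Figure D1:**
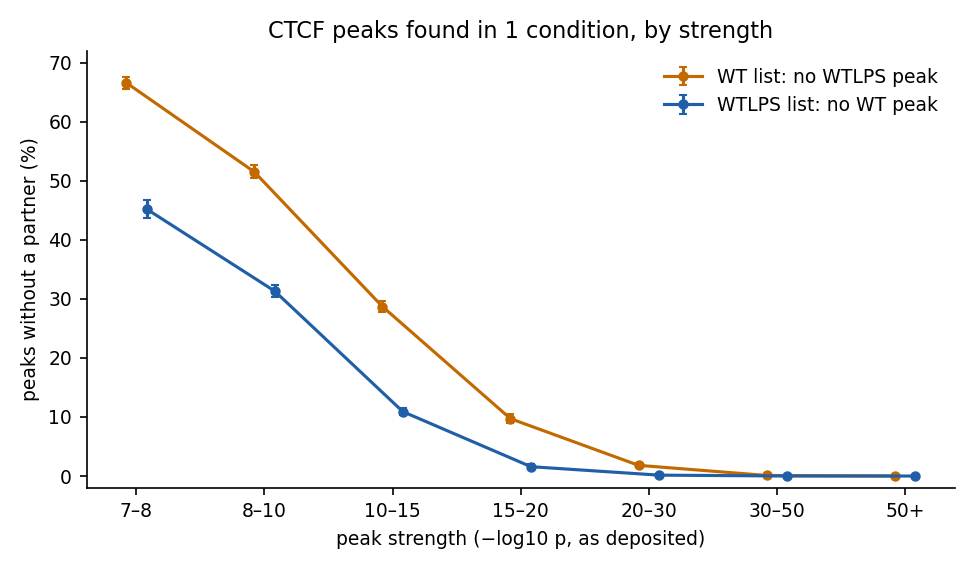
Share of CTCF peaks without a partner in the other condition, in percent, against deposited −log10 p in ranges, for the WT list (orange) and the WTLPS list (blue). Points are shares and bars are 95% Wilson intervals. The share fell from 66.6% to 0.00572% in WT and from 45.2% to 0% in WTLPS.

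The strongest WT-only peaks with no WTLPS peak within 1 kb lay mainly inside genes or on chromosome Y. Genes named here are the nearest by start site, and an intron may belong to another annotated gene. The peak nearest Anks3, which encodes an ankyrin repeat protein of cilia, was intronic, at chr16:4972372-4972991, with fold 9.82 and 52 fragments. It also had SMC1 in both conditions, and its nearest WTLPS CTCF peak was 6.48 kb away. Intronic peaks nearest Ric8b, a chaperone of G protein alpha subunits (chr10:84930525-84931038, fold 10.3, 48 fragments), and Ppfia4, a liprin of synapses (chr1:134315275-134316116, fold 8.80, 47 fragments), likewise overlapped SMC1 in both conditions. The intronic peak nearest Ralgps2, an exchange factor for Ral GTPases (chr1:157003835-157004246, fold 9.92, 46 fragments), overlapped SMC1 in WT alone. At the promoter of Emc9, a subunit of the ER membrane protein complex, a WT-only peak (chr14:55586274-55586686, fold 9.08, 42 fragments) overlapped H3K27ac in both conditions and SMC1 in WT alone.

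The remaining strongest WT-only peaks lay far from genes. A peak 778 kb from Olfr1507, an odorant receptor gene (chr14:53273380-53273624, fold 10.1, 47 fragments), was present in no other of the 30 lists. On chromosome Y, peaks with 152 fragments (chrY:22211101-22211285, fold 32.3, nearest gene Gm31571 at 160 kb) and 46 fragments (chrY:39911100-39911283, fold 9.92, nearest gene Gm21865 at 406 kb) lay 6885 and 10815 kb from the next WTLPS peak. The first of these was the only WT-only peak with a −log10 p above 50. It overlapped peaks of 11 lists, and CTCF peaks of KO and of KOLPS were among them.

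The strongest WTLPS-only peaks were weaker than these. The strongest had fold 8.16 and 36 fragments and lay 6.38 kb from the start site of Cycs, which encodes cytochrome c (chr6:50559855-50560358). It had no SMC1 peak in either condition. Peaks near Mbl2, which encodes a mannose-binding lectin (chr19:30302314-30302654, 35 fragments), and Sfmbt2, a Polycomb group gene (chr2:10305344-10305832, 31 fragments), overlapped SMC1 in WTLPS alone. The peak near Mtpn (chr6:35658821-35659319, 35 fragments) and an intronic peak nearest Clic4, an intracellular chloride channel gene (chr4:135256224-135256566, 33 fragments), overlapped SMC1 in both conditions and H3K27ac in WTLPS alone. The peaks nearest Arfgap3, which acts on Arf GTPases of the Golgi (chr15:83370459-83370960, 36 fragments), and Dram1, a regulator of autophagy (chr10:88365406-88365993, 32 fragments), lacked SMC1. The promoter of Tmed7, a cargo receptor of the secretory pathway, had a WTLPS-only peak with 32 fragments at a place with peaks in 16 of the 30 lists.

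Among shared peaks at places with peaks in fewer than 20 of the 30 lists, the strongest in WT lay at chr1:195241462-195241893, 65 kb from Cr2, with 2232 fragments in WT and 1818 in WTLPS, in 19 of the 30 lists. Its WT fold of 21.5 was the lowest of the sites named in this paragraph although its fragments were the most, so its local background was high. No CTCF core lay within 50 bp of its summit, and H3K27ac overlapped it in both conditions. The site near Gm15319 printed above (chr8:20424449-20425578) had 547 fragments in WT and 366 in WTLPS. A pair of sites near 4930467E23Rik (chr8:19702919-19704138 and chr8:19706335-19708118) had 582 and 512 fragments in WT and 499 and 440 in WTLPS. Each of these sites also had a CTCF peak in KO and in KOLPS.

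Summits of every class were enriched for the CTCF core, and shared summits the most. The core lay within 50 bp of 33.4% (33.0 to 33.8%) of shared and 19.1% (18.5 to 19.8%) of WT-only summits, a difference of 14.3 percentage points (13.4 to 15.1). In the WTLPS list it lay at 31.0% (30.6 to 31.4%) of shared and 17.3% (16.3 to 18.3%) of WTLPS-only summits, a difference of 13.8 points (12.7 to 14.8). Windows of the same size 1 kb to either side held it in 1.78 to 2.06%. The difference was also set out by strength. In WT it was 4.84 points (3.06 to 6.67) at a −log10 p of 7 to 8, 3.81 (2.04 to 5.57) at 8 to 10 and 1.28 (−0.74 to 3.27) at 10 to 15, where the core lay at 27.6% of shared and 26.4% of WT-only summits, and 7.62 (4.04 to 11) at 15 or more. In WTLPS it was 4.9 points (2.62 to 7.14), 4.85 (3.05 to 6.59), 2.88 (0.0912 to 5.51) and 5.5 (−4.92 to 14.1). The range of 15 or more is open, so strengths within it are not matched.

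Words of other factors were not enriched at any class. The PU.1 word GAGGAAGT lay at 0.407 to 0.568% of summits by class, against 0.584 to 0.708% in the neighbouring windows. The AP-1 word TGANTCA lay at 2.34 to 2.96%, against 2.80 to 2.96%, and the κB word GGGNNNTTCC at 0.495 to 0.768%, against 0.849 to 1.05%. All words were searched on both strands, and a match describes letters, not a bound factor.

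The classes differed more in which core they carried. The word CCAGAAGAGGGC, printed above, was the commonest exact core in every class, but made up 43.7% (42.9 to 44.5%) of cores at shared WT summits and 71.9% (70 to 73.6%) at WT-only summits. In the WTLPS list it made up 44.7% (44.0 to 45.5%) of cores at shared and 81.1% (78.6 to 83.5%) at WTLPS-only summits. Next came CCAGCAGAGGGC, with 3.93% of the cores at shared WT summits. As a share of all summits, the commonest word lay at 14.6% of shared WT, 13.8% of WT-only, 13.9% of shared WTLPS and 14% of WTLPS-only summits, against 0.463 to 0.612% in the neighbouring windows. All other cores together lay at 18.8, 5.39, 17.1 and 3.26% in the same order, against 1.31 to 1.44%. The lower share of cores in the condition-only classes was thus a lower share of cores other than the commonest word.

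The share of the commonest word among cores was also set out by strength. In the WT list, at a −log10 p of 7 to 8 the commonest word made up 78.9% (75.0 to 82.4%) of cores at shared and 75.6% (72.3 to 78.7%) at WT-only summits. At 10 to 15 it made up 72.1% (69.9 to 74.1%) and 69.2% (65.7 to 72.5%), and in the open range of 15 or more 36% (35.2 to 36.9%) and 67.3% (60.5 to 73.5%). In the WTLPS list it made up 67.9% (63.4 to 72.1%) of cores at shared and 80.9% (75.8 to 85.2%) at WTLPS-only summits at 7 to 8, and 70% (68.1 to 71.9%) and 80.9% (75.6 to 85.3%) at 10 to 15. At 15 or more it made up 35.5% (34.7 to 36.4%) of cores at shared summits and 20 of 25 at WTLPS-only ones. Of the 674 WT-only peaks in that open range, 560 lay at 15 to 20.

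Cores of every class lay in repeated DNA more often than not. Mouse B2 SINEs, short retrotransposed elements, are known to carry a CTCF motif. No repeat families were assigned here, but repeats are written in lower case in the reference genome. By that masking, the core lay in a repeat at 52.8% of core-bearing shared WT, 82.2% of WT-only, 54.2% of shared WTLPS and 91.7% of WTLPS-only summits. With or without a core, the summit base was masked at 35.4% of shared WT, 45.5% of WT-only, 36.0% of shared WTLPS and 49.5% of WTLPS-only peaks, against 27.8 to 29.6% of positions 1 kb away. At a −log10 p of 7 to 8 the core lay in a repeat at 88% (84.8 to 90.7%) of core-bearing shared and 85.8% (83 to 88.2%) of WT-only summits in WT, and the summit base was masked at 48.9% (47 to 50.9%) and 44.2% (42.8 to 45.6%). In WTLPS the core lay in a repeat at 81% (77 to 84.4%) of shared and 91% (87 to 93.9%) of WTLPS-only summits there, and the summit base was masked at 47.3 and 45.8%. How uniquely reads can be placed at such copies was not tested. The genome held 50566 copies of the word, of which 24.9% lay within 50 bp of a CTCF summit in either list, 15.0% at shared WT summits, 3.64% at WT-only and 1.71% at WTLPS-only summits.

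Sites with the commonest word differed from those with another core in what else was bound. Among shared WT peaks, 58.5% (57.3 to 59.6%) of sites with the word overlapped SMC1, against 80.6% (79.8 to 81.4%) of sites with another core. A CTCF peak was also present in KO at 12.2% (11.5 to 13%) and 50.6% (49.6 to 51.6%). H3K4me1 overlapped 41.2% (40 to 42.4%) and 31.0% (30.1 to 32.0%). These groups also differed in strength, with a median of 33 and 75 fragments. A peak without a partner was more common with the word (19.7% of WT and 10.5% of WTLPS peaks) than with another core (6.93 and 2.17%). Within a narrow range of strength the order did not hold in WT: at a −log10 p of 7 to 8, 58.5% (55.2 to 61.7%) of WT peaks with the word and 63.0% (57.0 to 68.6%) with another core lacked a partner. In WTLPS it did, at 42.2% (38.0 to 46.5%) and 26.7% (20.9 to 33.4%).

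**Figure D2:**
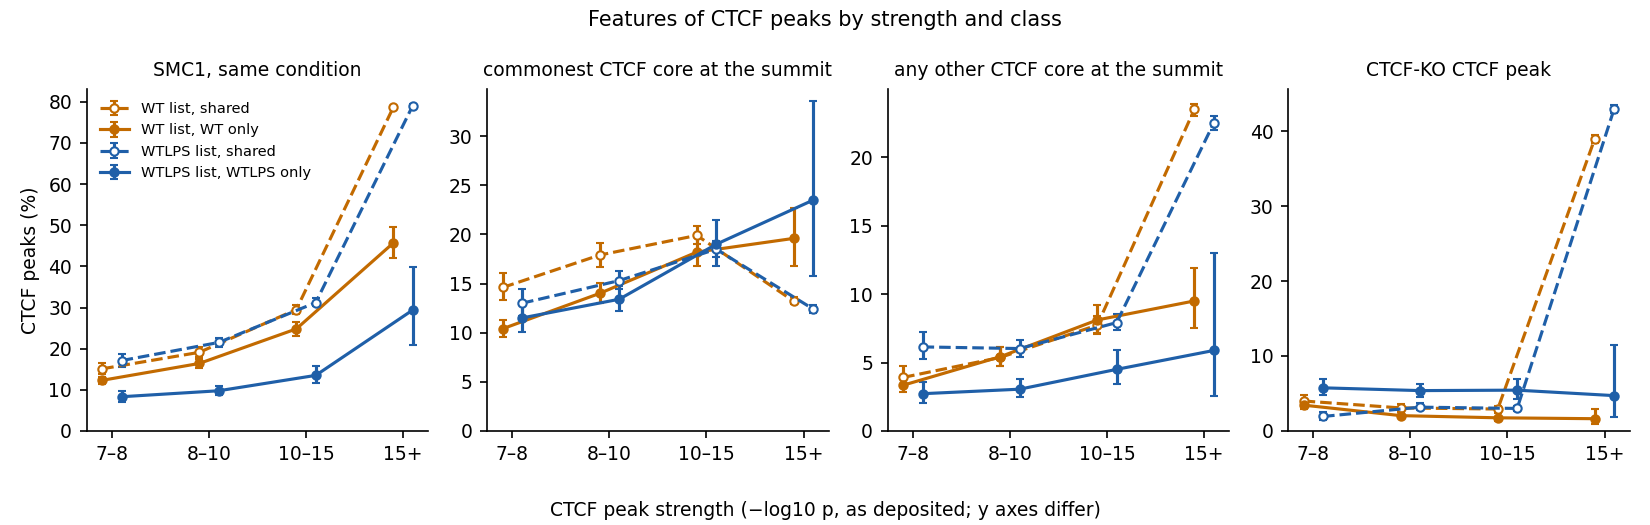
Share of CTCF peaks, in percent, that overlapped SMC1 of the same condition, carried the commonest core, carried any other core, or overlapped a CTCF peak in KO, against deposited −log10 p in ranges. Orange is the WT list and blue the WTLPS list, dashed lines are shared and solid lines condition-only peaks, and bars are 95% Wilson intervals. At a −log10 p of 10 to 15, SMC1 lay at 29.5% of shared and 24.8% of WT-only peaks, and at 31.2% of shared and 13.5% of WTLPS-only peaks; in the open range of 15 or more it lay at 78.7 and 45.7%, and at 79.1 and 29.4%.

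Cohesin was found at most shared sites and at few condition-only sites. SMC1 of the same condition overlapped 63.7% (63.3 to 64.2%) of shared and 18.1% (17.5 to 18.8%) of WT-only peaks, a difference of 45.6 points (44.8 to 46.4). It overlapped 60.7% of shared and 10.3% of WTLPS-only peaks in WTLPS, a difference of 50.4 points (49.5 to 51.3). The gap in WT was small among weak peaks, at 15.1 against 12.3% for a −log10 p of 7 to 8 (2.83 points, 1.17 to 4.54) and 29.5 against 24.8% for 10 to 15 (4.78 points, 2.77 to 6.75). In WTLPS it was larger at the same strengths, at 17.1 against 8.31% (8.79 points, 6.79 to 10.8) and 31.2 against 13.5% (17.7 points, 15.3 to 19.9).

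The share with SMC1 was set out by core. At shared WT peaks it lay at 80.6% (79.8 to 81.4%) with another core, 58.5% (57.3 to 59.6%) with the commonest word and 60.1% (59.6 to 60.7%) with no core. At WT-only peaks it lay at 22% (19 to 25.3%), 16.6% (15 to 18.5%) and 18.1% (17.4 to 18.9%) respectively. These shared WT peaks differed in strength as well, with a median −log10 p of 68, 20.2 and 26.6. At WTLPS-only peaks it lay at 10.9% (7.15 to 16.2%), 11.3% (9.23 to 13.6%) and 10.1% (9.26 to 11%).

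SMC1 overlap was lower after LPS at WT-only sites and was not higher at WTLPS-only sites. Of the 12494 WT-only peaks, 18.1% overlapped SMC1 in WT and 13.4% in WTLPS, a change of −4.77 points (−5.37 to −4.17), with 1042 peaks that had SMC1 in WT alone and 446 in WTLPS alone. Shared peaks of the WT list changed from 63.7 to 60.9% (−2.86 points, −3.15 to −2.56). The 5651 WTLPS-only peaks changed from 10.7 to 10.3% (−0.442 points, −1.23 to 0.348), with 272 in WT alone and 247 in WTLPS alone. The SMC1 list itself shortened from 63638 to 57354 peaks, and its part in these changes was not tested.

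Over all strengths, histone marks at the classes differed by a few points only. H3K4me1 in the same condition overlapped 33.5% of shared and 31.0% of WT-only peaks in WT (2.48 points, 1.56 to 3.39), and 33.2% of shared and 29.6% of WTLPS-only peaks in WTLPS (3.55 points, 2.28 to 4.80). H3K27ac overlapped 12.8 and 10.7% in WT (2.14 points, 1.51 to 2.75) and 12 and 9.24% in WTLPS (2.81 points, 1.97 to 3.59). H3K4me3 overlapped 12.3 and 8.84% in WT (3.43 points, 2.84 to 4.00) and 11.2 and 6.83% in WTLPS (4.37 points, 3.63 to 5.06). These differences changed with the overlap rule. At the summit base, H3K27ac was lower at shared than at condition-only peaks (−1.77 points in WT and −0.755 in WTLPS), as was H3K4me1 (−3.91 and −3.07 points), while H3K4me3 was higher (0.958 and 2.03 points). By any overlap in WT, H3K27ac was lower at shared than at WT-only peaks in every range of strength. The difference was −1.44 points (−2.77 to −0.0389) at a −log10 p of 7 to 8 and −1.88 (−3.14 to −0.619) at 8 to 10. It was −0.858 (−2.3 to 0.513) at 10 to 15 and −4.39 (−7.52 to −1.61) in the open range of 15 or more. In WTLPS the same differences ran from −0.624 to 1.68 points. H3K4me3 was also lower at shared than at WT-only peaks of low strength, by −1.98 points (−3.21 to −0.679) at 7 to 8 and −1.29 points (−2.44 to −0.138) at 8 to 10. In the open range of 15 or more in WT, H3K4me1 lay at the summit base of 22.5% of shared and 33.2% of WT-only peaks (−10.7 points, −14.4 to −7.21). By any overlap, H3K27me3 lay there at 12.1 and 5.64% (6.47 points, 4.43 to 8.01).

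Overlap with H3K27ac, H3K4me1 and H3K4me3 changed by at most 1.22 points after LPS in any class. WT-only peaks overlapped H3K27ac at 10.7% in WT and 10.3% in WTLPS (−0.44 points, −0.901 to 0.0206), and WTLPS-only peaks at 8.41 and 9.24% (0.832 points, 0.164 to 1.5). Of the WTLPS-only peaks, 209 had H3K27ac in WTLPS alone and 162 in WT alone. Shared peaks of the WT list changed from 12.8 to 12.3%. H3K4me1 changed from 31.0 to 30.5% at WT-only and from 30.5 to 29.6% at WTLPS-only peaks. H3K4me3 changed from 8.84 to 7.95% and from 8.05 to 6.83%. H3K27me3 overlap fell in every class, from 11.9 to 6.83% at shared, 10.4 to 5.94% at WT-only and 12.5 to 7.64% at WTLPS-only peaks. The H3K27me3 list itself went from 96475 to 65880 peaks, and its part was not tested. In WTLPS this mark was more frequent at WTLPS-only than at shared peaks (−1.06 points, −1.81 to −0.354, shared minus WTLPS-only). In WT it was less frequent at WT-only than at shared peaks (1.58 points, 0.963 to 2.18), which turned to −3.32 points at the summit base.

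**Figure D3:**
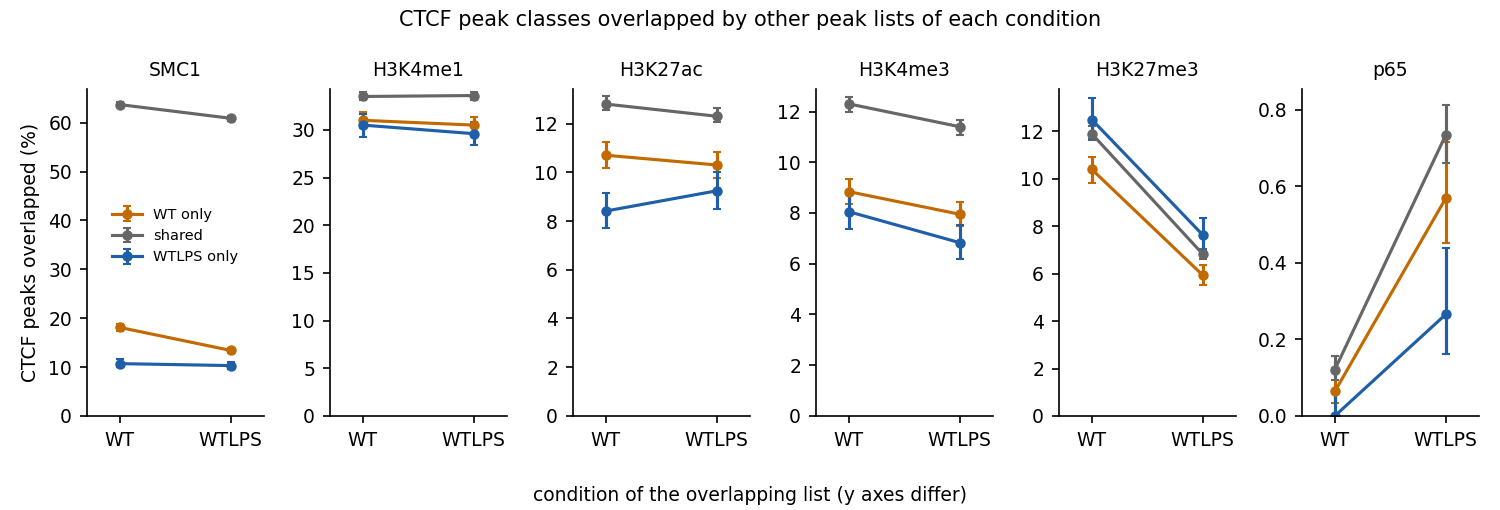
Share of CTCF peaks, in percent, overlapped by the SMC1, H3K4me1, H3K27ac, H3K4me3, H3K27me3 and p65 lists of WT and of WTLPS, with the same peaks followed in both conditions. Orange is WT-only, grey is shared (WT list) and blue is WTLPS-only, bars are 95% Wilson intervals, and the y axes differ. SMC1 at WT-only peaks went from 18.1 to 13.4%, and H3K27ac at WTLPS-only peaks from 8.41 to 9.24%.

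NF-κB rarely met CTCF in any class. The p65 lists held 781 peaks in WT and 5465 in WTLPS. After LPS, p65 overlapped 0.733% of shared peaks of the WT list (0.121% before), 0.568% of WT-only peaks (71 peaks, against 8 before) and 0.265% of WTLPS-only peaks (15 peaks, against 0 before). In the WTLPS list the difference between shared and WTLPS-only peaks was 0.415 points (0.229 to 0.545). Of the 5465 WTLPS p65 peaks, 330 (6.04%) overlapped a shared, 71 (1.3%) a WT-only and 16 (0.293%) a WTLPS-only CTCF peak. The p65 lists, unlike the CTCF lists, were named as filtered against problem regions.

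Of the 15 WTLPS-only peaks with p65, all but the peak nearest Ppp4r2 also overlapped SMC1 in WTLPS, against 10.3% of all WTLPS-only peaks. WTLPS-only peaks stood at places with peaks in a median of 2 of the 30 lists. The peak 5.53 kb upstream of Cxcl2, a chemokine that draws neutrophils (chr5:90897953-90898816), had fold 3.97 and 17 fragments, near the threshold. It overlapped SMC1 and H3K27ac in both conditions, at a place with peaks in 17 of the 30 lists. Others lay nearest Spdye4c (28 fragments, 13 lists), Apbb2 (26 fragments, 15 lists), Cbr4 (21 fragments, 16 lists) and Ccnd2, a D-type cyclin gene (19 fragments, 13 lists). WT-only peaks with p65 in WT included those nearest Ifnlr1, the receptor for type III interferons (25 fragments, 13 lists), and Lyz1, a lysozyme gene (20 fragments, 15 lists). The 8 WT-only places with p65 in WT had peaks in 12 to 19 of the 30 lists.

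The classes also differed in CTCF-KO cells. A KO CTCF peak overlapped 29.3% of shared peaks of the WT list, 2.51% of WT-only and 5.50% of WTLPS-only peaks, and a KOLPS peak 19.3, 1.12 and 2.87%. Among weak peaks the order turned for WTLPS-only peaks. At a −log10 p of 7 to 8, KO peaks overlapped 5.75% of WTLPS-only and 1.93% of shared WTLPS peaks (−3.82 points, −5.07 to −2.66, shared minus WTLPS-only), and at 10 to 15 they overlapped 5.44 and 3.00% (−2.44 points, −4.00 to −1.17). For WT-only peaks the same shares were 3.44 against 3.99% (0.549 points, −0.341 to 1.52) and 1.75 against 2.92% (1.17 points, 0.478 to 1.79). Of WTLPS-only peaks with the commonest core 0.379% overlapped a KO peak, and of those without a core 6.57%. Over all 30 lists, 40.3% of WT-only and 41.2% of WTLPS-only peaks stood at places with no peak in any other list. Places with peaks in 20 or more lists held 198 shared peaks of the WT list, 3 WT-only and 0 WTLPS-only peaks.

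All classes lay in similar places along genes. Promoters, taken to reach 2.5 kb in both directions from where each gene's longest transcript starts, held 18.1% of shared, 16.9% of WT-only and 16.5% of WTLPS-only summits. The differences from the shared peaks of the same list were 1.14 points (0.387 to 1.87) and 1.57 points (0.525 to 2.58). Introns held 43.9% of shared, 46.8% of WT-only and 46.4% of WTLPS-only summits, exons 4.03, 3.86 and 3.47%, and 34.0, 32.5 and 33.7% lay outside genes. The median distance to the nearest protein-coding start site was 20.8 kb for shared, 22.6 kb for WT-only and 22.5 kb for WTLPS-only peaks.

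Part of the condition-only peaks sat close to shared ones, and no expected share was worked out for comparison. A shared peak lay within 1 kb of 3497 (28.0%) WT-only and 1881 (33.3%) WTLPS-only peaks, and the median gap was 4.05 and 2.81 kb. Only 462 and 228 lay over 100 kb from a shared peak. By chromosome, WT-only peaks made up from 17.7% (15.7 to 19.9%) of WT peaks on X to 22.8% (20.9 to 24.8%) on 18, and WTLPS-only peaks from 7.14% (2 of 28) on Y and 7.44% on X to 12.8% on 16.

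Signal at shared sites was compared at the 43344 sites matched 1 to 1, which were 90.2% of the shared WT peaks. The median was 43 fragments in WT and 36 in WTLPS, and the median log2 ratio of WTLPS to WT was −0.23, against −0.08 for the background coverage. Ratios below are given relative to that median, since no spike-in or replicate set the scale. Their SD was 0.29, where counting error alone gives about 0.34. At sites of 50 to 100 fragments the SD was 0.24 against 0.25, and at 100 to 200 fragments 0.18 against 0.18. The spread between conditions was thus no larger than the counting error there. At 149 sites over 200 fragments the SD was 0.17 against 0.12. Below 25 fragments the ratios sat at a median of 0.15, where a site had to pass the threshold in both lists.

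Groups of shared sites did not part from the median by more than about 0.1. The median log2 ratio was −0.03 at promoters, 0.01 in introns and −0.02 with and 0.01 without the core. By core it was 0.05 with the commonest word and −0.07 with another core, and at 50 to 100 fragments −0.01 and −0.09. It was −0.06 where SMC1 was present in both conditions, 0.00 where in WT alone, 0.09 where in WTLPS alone and 0.10 where in neither, groups that also ran from a median of 69 down to 26 WT fragments. It was −0.06 where H3K27ac lay in both conditions, −0.08 in WT alone and 0.01 in WTLPS alone. At the 298 sites with p65 in WTLPS alone it was −0.09, with an SD of 0.34 against a counting SD of 0.33.

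Sites at least 2-fold from the median numbered 50 above (0.115%) and 21 below (0.0484%), and none of them averaged 50 fragments or more. Below 25 mean fragments there were 25 above and 0 below, and at 25 to 50 there were 25 above and 21 below. The farthest above lay in an intron 12.7 kb from the start of Oasl2, an interferon-stimulated gene (chr5:114909170-114909709), with 21 fragments in WT and 47 in WTLPS. Its log2 ratio was 1.40 above the median with a counting SE of 0.38, and H3K27ac overlapped it in WTLPS alone. St3gal3, a sialyltransferase gene, went from 23 to 46 fragments (chr4:118074207-118074897), Gstp1, a glutathione transferase gene, from 17 to 34 at its promoter (chr19:4038822-4039042), Pim2, a kinase gene, from 19 to 37 (chrX:7863655-7863943) and Gm527 from 17 to 33 (chr12:64817009-64817328).

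The farthest below was the site near Mroh6 printed above (chr15:75882768-75883275), with 54 fragments in WT and 18 in WTLPS, 1.35 below the median on the log2 scale with a counting SE of 0.39. The intronic site nearest Tgfbr2, the type II receptor for TGF-β, went from 53 to 18 fragments (chr9:116166830-116167226). The one nearest Fstl1, a secreted follistatin-like protein, went from 52 to 19 (chr16:37814329-37814796). These 3 sites overlapped SMC1 in both conditions. The promoter of Zfp219 went from 49 to 18 (chr14:52020401-52021082) and that of Rpl26, a ribosomal protein gene, from 55 to 21 (chr11:68901237-68901637). These sites were chosen as the extremes of all matched sites, so their values are a description.

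**Figure D4:**
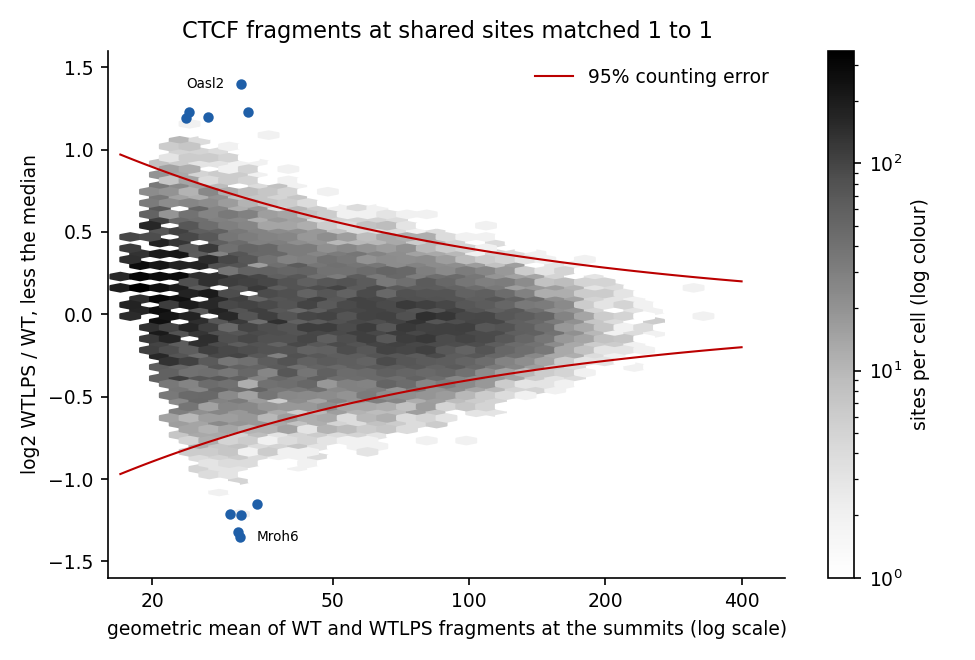
Log2 ratio of WTLPS to WT CTCF fragments, less the median ratio, against the geometric mean of fragments at the summits (log axis), at 43344 sites matched 1 to 1. Grey cells hold the number of sites on a log colour scale, red lines mark the 95% range of counting error, and blue points are the 10 named sites. The 10 named sites lie outside the red lines, and no site of 50 or more mean fragments lay 2-fold from the median.

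Near genes, shared peaks were common and condition-only peaks scattered. Within 10 kb of the start site, 51.5% of 21938 protein-coding genes had a shared peak, 18.3% (4022) a WT-only peak and 8.95% (1964) a WTLPS-only peak, and 561 had both of the latter. These shares differed with the presence of an H3K4me3 peak at the promoter. Among 12680 genes with H3K4me3 at the promoter, 66.2% had a shared, 24.2% a WT-only and 11.8% a WTLPS-only peak, against 31.4, 10.2 and 4.99% of 9258 genes without it. All genes in several of the lists below had the mark, so both backgrounds apply.

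The gene lists were small, and every count below is to be read beside the shares of all genes. Those were 51.5% for shared, 18.3% for WT-only and 8.95% for WTLPS-only peaks. Among genes with H3K4me3 they were 66.2, 24.2 and 11.8%. Of 16 inflammatory cytokine genes, 9 had a shared, 5 a WT-only (background 18.3%) and 0 a WTLPS-only peak (background 8.95%, and 0 of 16 allows up to 19.4%). The strongest lay in an intron of Il1a, the alarmin interleukin-1α (chr2:129304132-129304422), with fold 7.18 and 33 fragments, 5.71 kb downstream of the start, and overlapped SMC1 in both conditions. Weaker WT-only peaks lay at Ebi3, a subunit shared by interleukins (20 fragments), at the promoter of Il12b, the p40 subunit of interleukin-12 (18 fragments), where H3K4me3 lay in WTLPS alone, and at Osm, an interleukin-6 family cytokine (18 fragments).

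Of 14 chemokine genes, 7 had a shared, 5 (35.7%, 16.3 to 61.2%) a WT-only and 4 (28.6%, 11.7 to 54.6%) a WTLPS-only peak. The background was 18.3% for WT-only and 8.95% for WTLPS-only peaks, and with H3K4me3 24.2 and 11.8%. At Cxcl3, a neutrophil chemokine, the WT-only peak lay at the promoter (chr5:90786762-90787073, 27 fragments) with SMC1 in both conditions and H3K27ac in WTLPS alone. WT-only peaks also lay at −8.62 kb from the start of Ccl17 (23 fragments), at −6.94 kb from that of Ccl5 (22 fragments), where SMC1 lay in WTLPS alone, and at Ccl4 (18 fragments). Ccl2 and Ccl7, neighbouring chemokines that draw monocytes, shared 1 WTLPS-only peak (chr11:82038424-82038779, fold 5.96, 26 fragments). Cxcl1 and Cxcl2 shared the peak with p65 described above, so the 4 genes had 2 peaks.

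Genes of the NF-κB and TLR pathways had both kinds. Of 16 NF-κB subunit and feedback genes, 10 had a shared, 4 a WT-only and 2 a WTLPS-only peak. Tnfaip3, which encodes the inhibitor A20, had a WT-only promoter peak (chr10:19014632-19014920, 19 fragments) with p65 in WTLPS and SMC1, H3K27ac and H3K4me3 in both conditions. Nfkb1 (20 fragments), Nfkbia and Nfkbie, which encode inhibitors of NF-κB (18 fragments each), had the other WT-only peaks. The WTLPS-only peaks lay at Chuk, a kinase that marks the inhibitors for decay (21 fragments), and Nfkbiz, an induced cofactor (19 fragments). Of 19 TLR pathway genes, 13 had a shared, 3 (15.8%, 5.52 to 37.6%) a WT-only and 6 (31.6%, 15.4 to 54%) a WTLPS-only peak. Of all genes, 18.3% had a WT-only and 8.95% a WTLPS-only peak, and of genes with H3K4me3 24.2 and 11.8%. Tlr2, a receptor for lipoproteins, had a WT-only promoter peak (chr3:83841079-83841622, 25 fragments) over p65 of WTLPS, and a WTLPS-only peak 9.08 kb downstream (chr3:83832530-83832751, 17 fragments). WT-only peaks also lay at the adaptor gene Tirap (25 fragments) and at Irak3, a negative regulator (21 fragments). WTLPS-only peaks lay at Irak1, a kinase (22 fragments), Traf6, a ubiquitin ligase (19 fragments), and Ticam1, the adaptor TRIF (18 fragments). Tlr1, the partner of Tlr2, had one in its promoter region (18 fragments).

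Of 17 interferon-stimulated genes, 13 had a shared, 5 a WT-only and 3 a WTLPS-only peak. Ifit1 had a WT-only peak at −2.62 kb (20 fragments) and a WTLPS-only peak at −1.01 kb (19 fragments), and Rsad2, which encodes viperin, had 1 of each at about 10 kb (24 and 19 fragments). The WTLPS-only peak of Rsad2 was also the peak of Cmpk2, the only such gene among 10 LPS-induced enzymes, of which 8 had a shared and 0 a WT-only peak.

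Of 14 genes for transcription factors of dendritic cells, 10 (71.4%, 45.4 to 88.3%) had a shared, 5 (35.7%, 16.3 to 61.2%) a WT-only and 1 a WTLPS-only peak. Genes with H3K4me3 had shared peaks at 66.2% and WT-only peaks at 24.2%. WT-only peaks lay at Id2 (21 fragments), at Klf4 (20 fragments) and upstream of Irf8, a factor of the dendritic cell lineage (chr8:120732295-120732601, 19 fragments), where SMC1 lay in WT alone. The WTLPS-only peak lay in an intron of Runx3 (chr4:135126266-135126866, 27 fragments), with H3K27ac in WT alone. Of 14 antigen presentation and costimulation genes, 9 had a shared, 1 a WT-only and 0 a WTLPS-only peak, the WT-only peak lying upstream of Icosl, a T cell costimulator (26 fragments). Of 13 myeloid growth factor signalling genes, 11 had a shared, 3 a WT-only (Stat5b, Csf2ra and Pim1) and 1 a WTLPS-only peak (Socs1).

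All 12 AP-1 and immediate early genes had a shared (background 51.5%), 2 a WT-only (Jund and Fos) and 0 a WTLPS-only peak. Of 13 genes for cohesin and its regulators, 11 had a shared, 3 a WT-only and 4 (30.8%, 12.7 to 57.6%) a WTLPS-only peak. The WTLPS-only background was 8.95%, and 11.8% with H3K4me3. Nipbl, the cohesin loader, had peaks of both condition-only classes (18 fragments in WT, 24 and 21 in WTLPS). Of 12 housekeeping genes, 8 had a shared, 4 a WT-only and 2 a WTLPS-only peak. The strongest condition-only peak of any list lay at the promoter of Actb, β-actin (chr5:142905542-142905939, WT-only, fold 8.23, 38 fragments), with SMC1 in both conditions. Of 12 genes of other tissues, 3 had a shared, 1 a WT-only (Neurog2) and 1 a WTLPS-only peak (Pax6). The housekeeping genes, a list not chosen for LPS, had WT-only peaks at 33.3% (13.8 to 60.9%), beside 31.2% (14.2 to 55.6%) of the cytokine and 35.7% (16.3 to 61.2%) of the chemokine genes.

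Condition-only peaks did not gather in large numbers at single genes. Within 50 kb of a start site, Cdk19, a Mediator kinase gene, had the most WT-only peaks with 8, beside 6 shared peaks. At least 7 further genes tied at 7, among them the neighbours Atpif1 and Dnajc8. For WTLPS-only peaks at least 8 genes tied at 6, among them the neighbours Atf2, which encodes an AP-1 family factor, and Atp5g3, as well as Naa15.

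**Figure D5:**
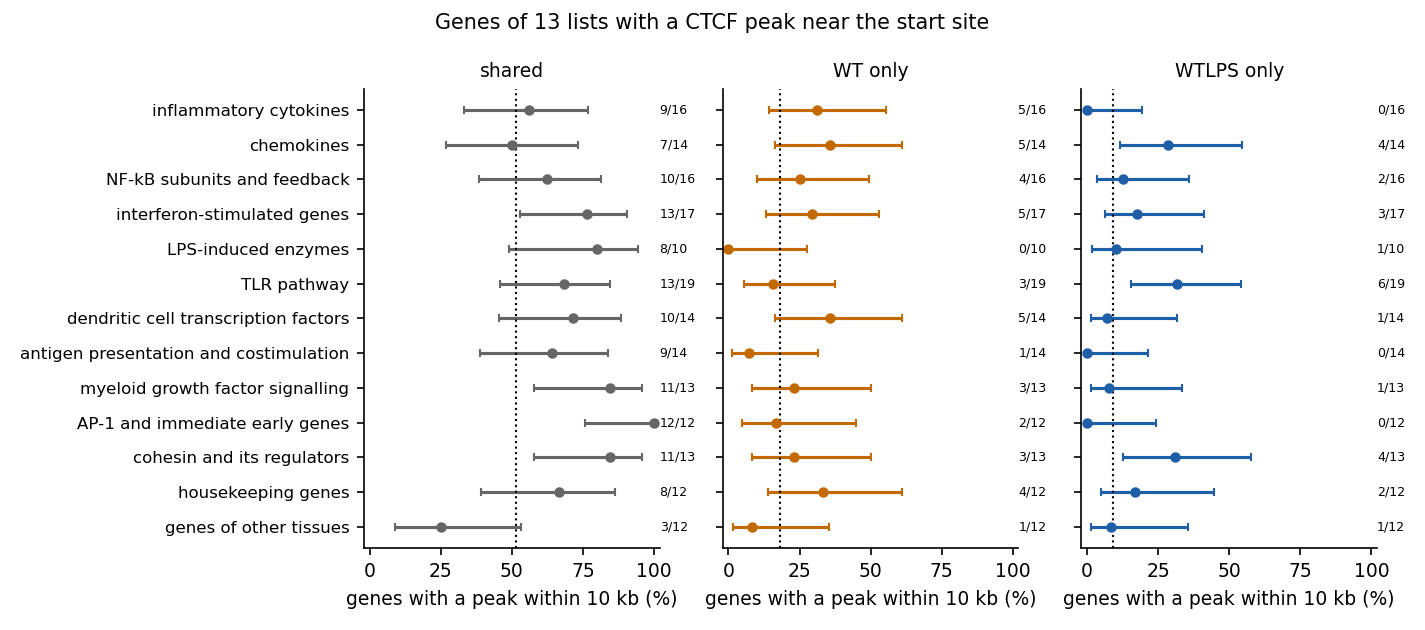
Share of genes, in percent, with a shared (grey), WT-only (orange) or WTLPS-only (blue) CTCF peak within 10 kb of the start site, for 13 gene lists. Points are shares, bars are 95% Wilson intervals, numbers at the right are counts, and dotted lines are the shares of all protein-coding genes (51.5, 18.3 and 8.95%). The intervals of most lists cover these lines.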

How the data were processed

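ChIP-seq peak lists for CTCF and, for comparison, SMC1, p65 and histone marks in WT and WTLPS were used as deposited, as were the KO and KOLPS CTCF lists. Per the study's methods and reporting summary, the authors trimmed read pairs, aligned them to mm10, removed duplicates and called peaks against input. The submitters' processing notes name BWA 0.7.12, Picard 1.77, MACS2 2.1.2 and deepTools 3.1.3. The study's methods give a different version of each of these tools, so the versions used are uncertain. The deposited fold enrichment is a ratio of fragments at the summit to those of the surroundings, and −log10 values of p and q are deposited beside it. The H3K27me3 and H3K4me1 lists hold broad peaks, and the other lists narrow peaks with a summit. The labels name an Abcam antibody for H3K4me1, while its peak names carry the tag CST, so the antibody used is uncertain. The study states that replicates were merged and processed again, for its experiments in general, and peak calling per replicate in the ChIP-seq methods, so whether these lists are pooled is uncertain.

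Classes were set by overlap of at least 1 bp. Fragments at a summit were recovered from fold and p under MACS2's Poisson model (within 0.002 in −log10 p for 100% of peaks in each list), which gives the modal background of 3.74 and 3.53 fragments as the measure of depth. Total reads per library are not in the lists. The study's reporting summary gives more uniquely mapped reads for the WT than for the WTLPS CTCF sample. That gap is larger in proportion than the gap in modal background, and those totals were not used here. Genes came from GENCODE vM21 on GRCm38 (21938 protein-coding genes, and 182 of 184 listed genes found), and sequence and repeat masking from the genome of the same build. With 1 list per condition no test between conditions was run. Shares have 95% Wilson and differences 95% Newcombe intervals, which cover counting error only. Changes in the same peaks between conditions have 95% intervals for paired shares.

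Named peaks were the 8 of highest −log10 q per condition-only class with no partner within 1 kb and peaks in fewer than 20 of 30 lists, the 4 strongest shared sites under the same limit, the strongest condition-only peaks of each gene list (at most 4 per class), and the 5 matched sites farthest above and below the median ratio with a −log10 p of at least 15 in either list. The WTLPS-only peak of Tlr2, ranked 6 in the TLR list, was named and printed outside this rule, while that of Irak3, ranked 5, was not named. The 3 genes with the most condition-only peaks of each class within 50 kb were named too, with ties. p65 sites named in the text were chosen after their values were seen. The classes and gene lists were chosen with earlier results of these data known. The alternatives were other overlap rules, stricter thresholds, thinning, other promoter, motif and gene windows, and leaving out sex chromosomes or places shared by many lists. Scripts used Python 3.11.15, numpy 2.4.6, pandas 2.3.3, scipy 1.17.1 and pysam 0.24.0, and were tested on simulated data. Some marker genes are not reported here by name.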

Additional observations from a re-analysis of the deposited data

How the results depend on the processing

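No paired analysis was possible because each condition had 1 CTCF list, and no replicate was left out for the same reason. Shared minus condition-only differences kept their direction under the alternatives run, except for p65 and 3 histone marks. The cause of those turns was not tested.

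With both lists restricted to a −log10 p of at least 10, 7046 peaks were WT-only and 3448 WTLPS-only; with that limit on condition-only peaks alone, 3299 and 1151. Requiring summits within 200 bp gave 9733 WTLPS-only peaks, and no partner within 1 kb gave 3618.

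With the limit of 10 on both lists, the difference in points, WT then WTLPS list where both moved, was 43.8 and 52.0 for SMC1 and 7.90 and 6.22 for the CTCF core. For p65 in WT it turned to −0.000788, and for H3K27me3 it was 3.07 and −0.0071. In WTLPS alone it was 1.93 for H3K27ac, 1.86 for H3K4me1, 6.20 for H3K4me3 and 3.23 for promoters. The gene shares were 46.5, 11.3 and 5.88% (shared, WT-only, WTLPS-only). At the summit base, H3K27ac turned to −1.77 and −0.755, H3K4me1 to −3.91 and −3.07 and H3K27me3 in WT to −3.32, while H3K27me3 in WTLPS was −3.12, H3K4me3 0.958 and 2.03, and p65 in WTLPS 0.114.

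An SMC1 limit of 10 gave 46.8 in WTLPS, and a 1 kb promoter 2.76. With 1 more motif base fixed the core difference was 12.2 and 10.9, and within 100 bp 19.0 and 20.3. Within 50 kb, 82.3, 53.2 and 32.1% of protein-coding genes had a shared, WT-only or WTLPS-only peak, and within 10 kb 39.9, 14.2 and 6.85% of all annotated genes.

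Condition-only peaks had a median of 20 (WT) or 19 (WTLPS) fragments, and 17 at the 10th percentile in both lists. Thinning WT to the WTLPS coverage left 10075 WT-only peaks.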

Other observations

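STAT5, which carries the GM-CSF signal into the nucleus, was profiled without LPS in WT and KO cells. WT STAT5 peaks overlapped 1.34% of shared and 1.03% of WT-only peaks of the WT list, a difference of 0.306 points (0.0891 to 0.501), and 0.708% of WTLPS-only peaks. KO STAT5 peaks overlapped 1.12, 0.928 and 0.566% of the same classes. At the summit base the WT shares were 0.639% of shared and 0.728% of WT-only peaks (−0.0893 points, −0.268 to 0.065), so the order turned with the overlap rule. All these values are descriptions of 1 list each.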
